A study of Mus musculus with 14 samples.

Results

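H3K27ac, the acetylation of lysine 27 on histone H3 that marks active promoters and enhancers, was compared between mouse embryonic stem cells (ESCs) and the same cells differentiated with retinoic acid (RA). The data were the 2 H3K27ac libraries of these states out of 14 samples in the series, chosen by mark and state and not by any measured value. Their peak lists held 100469 peaks in ESCs and 102600 after RA, which merged into 138257 regions, and 61153 regions carried at least 100 CpG counts summed over both libraries. The series also measured H3K4me1 in both states and both marks in extraembryonic endoderm (XEN) cells, which served here only as comparison. The XEN cells had been differentiated for 9 days with 0.1 µM RA and Activin A. The cells were R1, a single ESC line from a male mouse embryo. The ESC group had grown for 2 days without 2i, the inhibitor pair that holds ESCs in a ground state, in serum medium with LIF. The RA group had been treated for 4 days with 1 µM RA in serum without LIF, and its cells are a mixture of states, so that each value is an average over the population. A change in the share of cells that carry the mark and a change within each cell cannot be told apart.

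Histone acetyltransferases place acetyl groups on H3K27 at regulatory DNA bound by transcription factors, and deacetylases remove them. Enhancers that carry both H3K4me1 and H3K27ac are usually active, and those with H3K4me1 alone are often called primed. 5-methylcytosine (5mC) at CpGs is low where transcription factors bind, and when ESCs leave the ground state the de novo methyltransferases add 5mC over most of the genome. In chromatin immunoprecipitation followed by bisulfite sequencing (ChIP-BS-seq), 5mC is read only in the DNA fragments that the antibody pulled down, which makes it possible to ask how methylated the acetylated copies of a region were.

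Each state had 1 H3K27ac library, so no spread between repeats could be given, and the differences below compare 2 libraries. The ESC library held 32588942 CpG counts and the RA library 32305709, which is nearly the same depth. Occupancy is the number of CpG counts in a region, methylated and unmethylated together, scaled to the library total and given as CPM. Methylated CpGs made up 33.0% of all counts in the ESC library and 38.7% in the RA library. On the mitochondrial genome the share was 3.55% (exact 95% interval 2.15 to 5.49, 535 counts) in the ESC library and 6.44% (4.45 to 8.97, 497 counts) in the RA library. In the H3K4me1 libraries it was 0.383% in ESCs and 3.23% after RA. The part of this difference in the 5mC rises reported below was not tested, and many nuclear bins of the same libraries had lower shares, as given below. All intervals are exact (Clopper-Pearson for shares, conditional binomial for ratios) and treat each CpG count as independent. CpGs on the same read are not, so that the intervals are too narrow and at best cover counting error. Positions are in the mouse build mm9, gene names were not assigned to them because no annotation of this build was used, and for the same reason the labelled cell types were not checked against marker genes.

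A large part of the peaks of each list had no partner in the other list, while the number of peaks hardly changed. Each state had 1 list, so the share without a partner between repeats of the same state was not measured. Of the ESC peaks, 45650 (45.4%) overlapped no RA peak, and of the RA peaks, 47008 (45.8%) overlapped no ESC peak, with 1 bp counted as overlap. The peaks without a partner were narrower and weaker than those present in both lists. ESC peaks without an RA partner had a median width of 1324 bp and a median score of 13.2, against 2148 bp and 25.3 for ESC peaks with a partner. RA peaks without an ESC partner had a median width of 1512 bp and a median score of 14.2, against 2177 bp and 26.7. The share without a partner fell from 63.2% in the 25% of ESC peaks with the lowest scores to 21.7% in the 25% with the highest, and from 62.1% to 23.7% among RA peaks. Peaks without a partner held a small part of the signal, with 10.6% of all CpG counts of the ESC library in ESC peaks and 11.1% of the RA library in RA peaks. Peaks with a partner held 53.2% and 56.5%.

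With counts scaled to the library total, occupancy rose and fell in almost equal numbers of regions. Such scaling cannot show a change of H3K27ac over the whole genome. Of the 61153 regions with at least 100 counts, 15951 (26.1%) had at least 2-fold higher occupancy after RA and 16149 (26.4%) at least 2-fold lower occupancy, and 29053 stayed within 2-fold. Scaled to counts outside all peaks instead, 17867 regions were at least 2-fold higher and 14384 at least 2-fold lower. With the library total, the log2 ratio of RA over ESC had a median of 0.02, with quartiles of -1.08 and 1.06. Changes also occurred at regions with a peak in both lists, where 5639 of 36060 regions rose and 5249 fell by at least 2-fold. A peak in 1 list only did not always mean a 2-fold change, since 1829 of 12728 regions with ESC peaks only and 2052 of 12365 with RA peaks only stayed within 2-fold. The lists and the occupancies come from the same reads, so that their agreement in direction is no separate evidence. Of the regions that missed the minimum of 100 counts, most had a peak in 1 list only, and only 27.9% of regions with ESC peaks only and 26.3% of those with RA peaks only reached it, against 79.1% of regions with both.

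**Figure D1:**
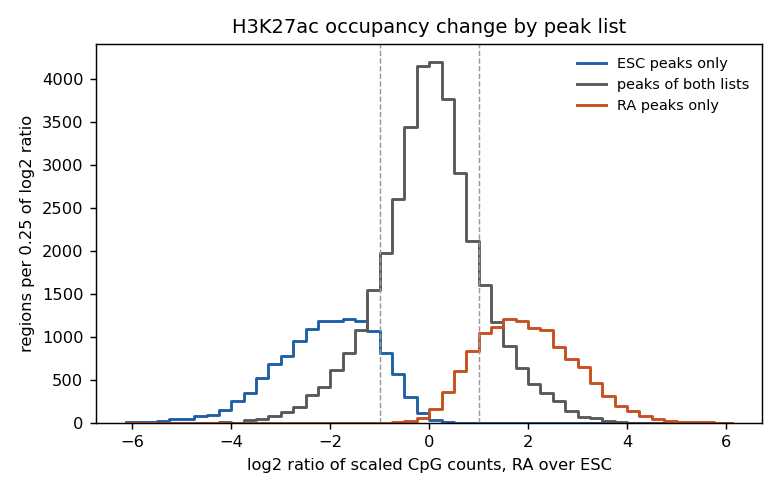
Number of H3K27ac regions (y axis, per 0.25 of log2 ratio) by the log2 ratio of scaled CpG counts, RA over ESC (x axis), for regions with ESC peaks only, RA peaks only and peaks of both lists, with at least 100 counts. Dashed lines mark 2-fold, and regions with both peaks centre at a median of 0.04, those with ESC peaks only at -1.98 and those with RA peaks only at 1.91.

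The spread between 2 libraries of the same cells was available only in XEN cells, which had been differentiated for 9 days with 0.1 µM RA. In XEN cells the mark in the sample label and the mark in the file name are swapped, and the values go against the labels. In regions within 2-fold between ESC and RA, the XEN libraries labelled H3K4me1 had 33.9% and 34.5% 5mC and 3.01 and 2.83 CPM per kb, while those labelled H3K27ac had 58.9% and 59.1% 5mC and 2.20 and 2.12 CPM per kb. The ESC and RA H3K27ac libraries had 15.8% and 22.7% 5mC and 2.63 and 2.72 CPM per kb there, with no minimum per bin, and the H3K4me1 libraries 30.6% and 48.2% 5mC and 1.92 and 1.84 CPM per kb. The pair of lower 5mC and higher occupancy is therefore the pair labelled H3K4me1. Bins with under 4 counts are missing from the XEN files, and with that minimum applied to all libraries 56.2% of regions passed 2-fold between ESC and RA. Between the XEN libraries labelled H3K27ac 1.16% passed 2-fold, and between those labelled H3K4me1 2.46%. Among regions with at least 500 counts the share was 40.4% between ESC and RA and 0.0142% and 0.0432% between the XEN libraries. The difference between ESC and RA was thus larger than the spread between either XEN pair, but whether ESC or RA repeats vary as little was not measured.

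The regions with the highest ratios had few counts in ESCs, which their selection by ratio implies. The largest ratio among regions with at least 400 counts was at chr3:145865054-145872220, with 39 counts (1.20 CPM) in ESCs and 1883 counts (58.3 CPM) after RA, which is 48.7-fold higher (log2 ratio 5.61, 95% interval 5.15 to 6.10). It held no H3K4me1 peak in ESCs and its H3K4me1 occupancy rose from 1.84 to 39.0 CPM. At chr10:92908991-92912673 the counts went from 23 to 880 and at chr3:115839734-115847211 from 22 to 716. The other three were at chrX:131014015-131018575 (12 and 393 counts), chr17:78983633-78989026 (40 and 1273 counts) and chr10:58864606-58868399 (24 and 759 counts). All 6 had RA peaks only, and their ratios lay between 31.9-fold and 48.7-fold. The last of them differed from the rest in that it already held an H3K4me1 peak in ESCs, and its H3K4me1 occupancy rose only from 4.44 to 8.86 CPM. 5mC of the acetylated DNA after RA lay between 21.1% and 45.3% in the 6 regions. Their occupancy after RA lay between 2.67 and 8.13 CPM per kb, against 2.72 over regions within 2-fold.

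The regions with the lowest ratios likewise had few counts after RA. At chr14:121902773-121907550 the library held 806 counts (24.7 CPM) in ESCs and 12 counts (0.371 CPM) after RA, which is 66.6-fold lower (log2 ratio -6.06, 95% interval -7.02 to -5.24). Its H3K4me1 occupancy fell much less, from 16.3 to 5.64 CPM, and it kept an H3K4me1 peak. A 20782 bp region at chr7:152035161-152055942 had 2981 counts in ESCs and 74 after RA, and its 5mC was 4.90% (4.15 to 5.73) in ESCs and 40.5% (29.3 to 52.6) in the few fragments counted after RA. At chr4:126873500-126882469, 958 counts became 24 and 5mC was 11.8% (9.82 to 14.0) and 70.8% (48.9 to 87.4). After RA these 2 regions held 0.110 and 0.0828 CPM per kb, below the 0.126 CPM per kb outside all peaks, so that their 5mC after RA is not that of acetylated DNA. The remaining regions of the 6 were at chr10:94792955-94796298 (476 and 9 counts), chrX:55265423-55270898 (892 and 24 counts) and chr17:17871740-17879455 (520 and 14 counts). ESC 5mC lay between 1.68% and 30.5% in the 6 regions, on both sides of the 18.9% over all regions. Except at chr14:121902773-121907550, no H3K4me1 peak remained after RA.

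Peak widths shifted little over the whole list, but the widest class became smaller. The median width was 1661 bp in ESCs and 1785 bp after RA, and 1000 bp, the smallest width in the lists, was the width of 25.5% of ESC and 23.4% of RA peaks. Peaks of at least 10 kb numbered 3194 in ESCs and 2732 after RA, and they made up 20.3% and 16.9% of the peak-covered length, which was 276 and 279 Mb. At the far end the order turned, with 2 ESC and 5 RA peaks of at least 100 kb, and the widest peak was 120547 bp in ESCs and 234260 bp after RA. Width followed occupancy in regions with peaks of both lists. The peak-covered length had a median of 1854 bp in ESCs and 4664 bp after RA in the 5639 regions that rose at least 2-fold, and of 4831 and 1757 bp in the 5249 regions that fell. In the 25172 regions within 2-fold it was 3050 and 3055 bp, and 7.20% of them became at least 2-fold wider and 6.77% at least 2-fold narrower. Occupancy and width were read from the same libraries and are not independent.

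**Figure D2:**
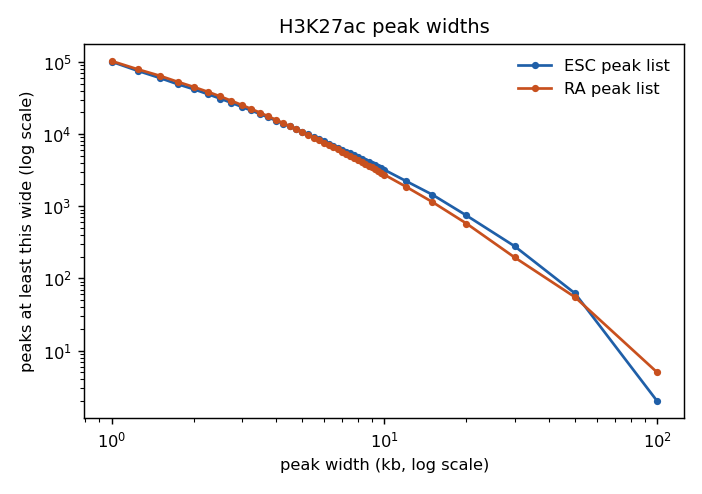
Number of H3K27ac peaks at least as wide as the value on the x axis (kb), for the ESC and the RA peak list, both axes on log scales. The RA list holds more peaks at the narrow end, with 102600 against 100469 in all, and fewer at 10 kb or more, with 2732 against 3194.

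Broad regions were the most stable in occupancy, and their 5mC rose most. Of the 1348 merged regions of 20 kb or more, 66.4% stayed within 2-fold, against 47.0% of the 11074 regions under 2 kb. In these narrow regions falls were more frequent than rises (35.8% and 17.2%), whereas regions of 2 to 5 kb had 29.8% rises and 25.0% falls. The 5mC of acetylated DNA rose from 16.9% to 32.3% in regions of 20 kb or more and from 21.3% to 28.2% in regions of 2 to 5 kb. The widest region with ESC peaks only was at chr10:84505548-84541760 (36213 bp), where 2388 counts fell to 136, and the next were at chr4:84297207-84323275 (3252 and 446 counts) and chr1:63513222-63534673 (979 and 223 counts). The widest with RA peaks only lay next to each other, at chr17:78681737-78734244 (52508 bp, 627 and 5590 counts) and chr17:78638259-78681487 (43229 bp, 625 and 2748 counts), followed by chr15:67992791-68022912 (327 and 1871 counts). These wide regions gained acetylation without low 5mC. At chr17:78681737-78734244, where occupancy was 8.99-fold higher, acetylated DNA had 67.1% 5mC (65.8 to 68.3) after RA. The ESC counts there, at 0.366 CPM per kb and without a peak, had 69.7% (65.9 to 73.3). That value cannot be read as the 5mC of acetylated DNA.

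Around the centres of the peaks, the state without a peak was not flat. At ESC peaks without an RA partner, the central 200-bp bin held 314 CPM per 1000 peaks in ESCs and 89.2 after RA, against 46.8 after RA at 1 kb before the centre. At RA peaks without an ESC partner, the centre held 274 CPM per 1000 peaks after RA and 81.6 in ESCs, against 52.7 in ESCs at 1 kb before the centre. The centre thus stood above its near flank before gain and after loss, but not above the outer flank, which held 88.7 CPM per 1000 peaks in ESCs at 5 kb before the centre of RA peaks without an ESC partner and 105 after RA at ESC peaks without an RA partner. CpG counts also follow how many CpGs a bin holds, whose part in these levels was not tested. 5mC was lower at each centre than at 1 kb before it. In ESC peaks without an RA partner it was 29.97% in ESCs and 50.3% after RA at the centre, and 44.2% and 61.4% at 1 kb before it. In RA peaks without an ESC partner it was 51.9% in ESCs and 45.6% after RA at the centre, and 59.7% and 59.1% at 1 kb before it, so that the fall was at the centre and the flank differed by less than 1 point. At 5 kb before the centre 5mC was lower again in both sets, with 30.7% in ESCs and 35.8% after RA at ESC peaks without an RA partner and 39.7% and 44.6% at RA peaks without an ESC partner. Peaks with a partner were less methylated at the centre, with 13.9% and 18.1% at ESC peaks and 12.2% and 18.1% at RA peaks.

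**Figure D3:**
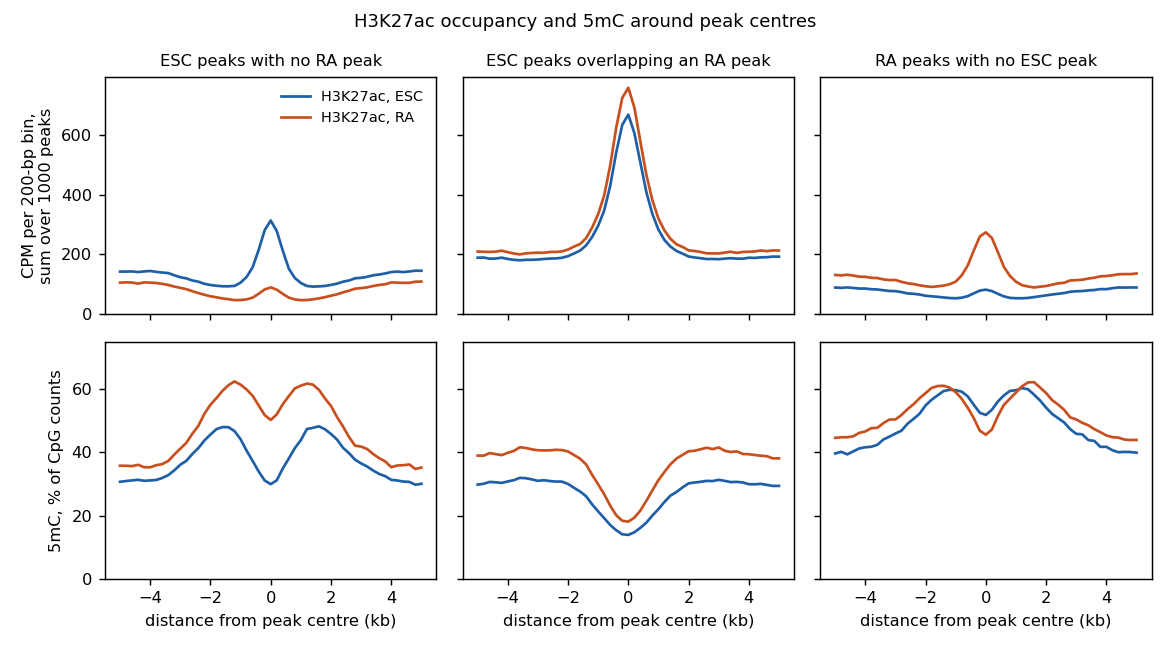
H3K27ac occupancy (top, CPM per 200-bp bin summed over 1000 peaks) and 5mC (bottom, % of CpG counts) by distance from the peak centre (kb), for 45644 ESC peaks without an RA peak, 54804 ESC peaks overlapping an RA peak and 47008 RA peaks without an ESC peak, in both H3K27ac libraries. At the centre of RA peaks without an ESC peak the RA line lies below the ESC line in 5mC (45.6% and 51.9%), while in the other 2 sets it lies above.

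The 5mC read in the H3K27ac libraries varied with how much occupancy the region had gained or lost. In regions that lost H3K27ac, the fragments still counted were much more methylated, in stable regions 5mC rose moderately, and where occupancy rose over 4-fold the pooled share fell. This fall was not found in the mean over bins with at least 30 counts in both libraries, which was 8.00% in ESCs and 10.9% after RA in regions 4- to 8-fold higher and 3.87% and 4.74% in those over 8-fold higher. The same mean rose less than the pooled share in lost regions. Its rise was smallest at the smallest loss but not largest at the largest loss. It was 3.05% and 15.7% in regions over 8-fold lower and 3.00% and 16.3% in those 4- to 8-fold lower. In those 2- to 4-fold lower it was 4.46% and 15.5%. As pooled shares, regions over 8-fold lower (2418 regions) had 18.1% 5mC in ESCs and 48.5% after RA, a rise of 30.3 percentage points. Regions 4- to 8-fold lower (5039) rose by 25.2 points, from 21.4% to 46.5%, and regions 2- to 4-fold lower (8692) by 18.9 points, from 22.7% to 41.6%. Regions within 2-fold rose by 6.96 points, from 15.8% to 22.7%. Among gained regions, 5mC rose by 5.14 points in those 2- to 4-fold higher (8849 regions, 29.8% and 34.9%). It fell by 4.01 points in those 4- to 8-fold higher (5016 regions, 46.4% and 42.4%) and fell by 13.6 points in those over 8-fold higher (2086 regions, 53.1% and 39.5%). These shares pool all counts of a class, and each has an exact 95% interval no wider than 1 point. The occupancy classes were made from the total counts of the same 2 libraries, and 5mC is the methylated part of those counts.

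In the classes of strong change, 1 of the states had few counts. In regions over 8-fold higher the ESC library held 0.276 CPM per kb, against 3.04 after RA, and in regions over 8-fold lower the RA library held 0.237 CPM per kb, against 2.69 in ESCs. Per 200-bp bin with a count in either library, regions over 8-fold higher held 0.0678 CPM in ESCs and regions over 8-fold lower 0.0603 CPM after RA, against 0.0651 and 0.0580 outside all peaks. Regions 4- to 8-fold higher held 0.112 CPM in ESCs and regions 4- to 8-fold lower 0.108 CPM after RA, less than 2-fold above the level outside. Over all bins, of which fewer hold a count outside peaks (43.4%), the level outside was 0.141 CPM per kb in ESCs and 0.126 after RA. 5mC outside all peaks was 57.6% in the ESC library and 58.2% in the RA library. The 53.1% of gained regions in ESCs and the 48.5% of lost regions after RA were below these values. At these levels neither value can be read as the 5mC of acetylated DNA, and what part of the 46.4% in ESCs and the 46.5% after RA in the 4- to 8-fold classes came from DNA without acetylation was not tested.

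**Figure D4:**
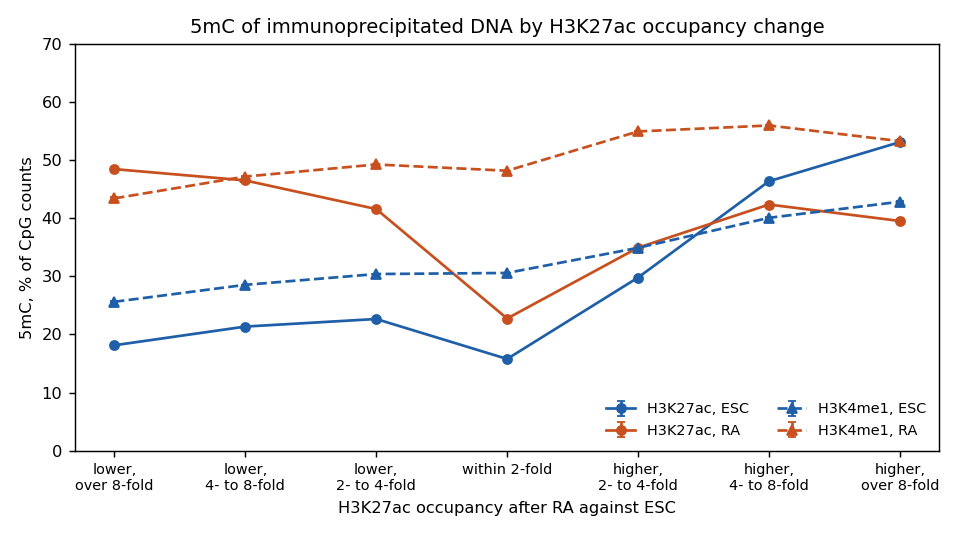
5mC (% of CpG counts, y axis) of the DNA in H3K27ac and H3K4me1 libraries of ESC and RA cells, for 7 classes of regions by H3K27ac occupancy change (x axis), with exact 95% intervals that are smaller than the points. In the H3K27ac libraries the RA line starts 30.3 points above the ESC line in regions over 8-fold lower and ends 13.6 points below it in regions over 8-fold higher, while in the H3K4me1 libraries it lies above in every class.

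The H3K4me1 libraries, whose counts had no part in making the classes, showed a rise of 5mC in all 7 classes. It was 17.8 points in regions with over 8-fold lower H3K27ac (25.6% and 43.4%), 17.6 points in regions within 2-fold (30.6% and 48.2%), 20.0 points in regions 2- to 4-fold higher (34.9% and 54.9%) and 10.4 points in regions over 8-fold higher (42.8% and 53.3%). The rise was smallest in the regions with the strongest gain of H3K27ac. After RA, the acetylated DNA of the regions over 8-fold higher was thus 39.5% methylated and the H3K4me1-marked DNA of the same regions 53.3%. In regions over 8-fold lower the shares after RA were 48.5% in the H3K27ac and 43.4% in the H3K4me1 library. The first cannot be read as the 5mC of acetylated DNA, as given above, so that the marks cannot be ranked there.

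Split into methylated and unmethylated counts, the same values show which part of the occupancy changed. In regions within 2-fold, unmethylated counts stayed nearly level (0.949-fold of ESC) and methylated counts were 1.49-fold higher. In regions 2- to 4-fold higher, unmethylated counts were 2.46-fold and methylated counts 3.12-fold higher. These folds follow from the occupancies and 5mC shares given above and are no separate result.

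Single regions varied around these pooled shares. With at least 30 counts in each library, 5mC could be compared in 11367 of 16149 regions that fell, 29053 that stayed within 2-fold and 12131 of 15951 that rose. The median change per region was a rise of 21.7 points in those that fell (quartiles 10.1 and 33.1), 7.53 points in those within 2-fold (1.51 and 18.2) and -0.38 points in those that rose (-10.2 and 6.82). 5mC was higher after RA in 92.6% of regions that fell and in 48.7% of regions that rose. A rise of more than 20 points was found in 6130 regions that fell, 6297 within 2-fold and 576 that rose, and a fall of more than 20 points in 22, 168 and 1207. Over all 52551 regions compared, the shares were 24.7% and 2.66%. Among XEN libraries labelled H3K27ac, 5mC of the same regions differed by more than 20 points in 0.171% of 38587 regions with at least 100 counts in each, while between ESC and RA it did in 19.7% of 21069.

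Stable regions differed in 5mC by the density of their H3K27ac counts. This density also follows how many CpGs a region holds, whose part was not tested. The densest 25% of the 29053 regions within 2-fold, above 3.41 CPM per kb, had 5.41% 5mC in ESCs and 9.12% after RA. The 25% with the lowest density had 56.1% and 68.9%, against 57.6% and 58.2% outside all peaks. The rise was 3.71 points in the densest set and between 12.8 and 15.9 points in the other three. In the H3K4me1 libraries the densest set rose by 15.1 points, from 19.9% to 35.0%, and the other sets by 19.4 to 20.7 points. In percentage points the densest set therefore changed least in both marks, and the difference between the marks was larger there. It also started from the lowest 5mC, and relative to that start its rise was the largest of all sets in both marks.

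At the scale of 200-bp bins, 81132 bins in peaks had at least 30 counts in both libraries. By Fisher's exact test (two-sided, Benjamini-Hochberg adjusted p under 0.05), which compares the 2 libraries and not the states, 11208 bins (13.8%) had higher and 864 (1.06%) lower 5mC after RA. At a minimum of 60 counts 3271 of 44437 bins (7.36%) were higher, and with a difference of more than 20 points also asked 296 (0.365%) were lower. Bins in regions that fell at least 2-fold were called higher in 31.1% and lower in 0.554% of 5419 cases. Bins in regions that rose were called higher in 9.61% and lower in 2.50% of 8104 cases, and those in regions within 2-fold in 12.9% and 0.933% of 67602. Median counts per bin were 102 in ESCs and 47 after RA in regions that fell, 85 and 93 within 2-fold and 51 and 127 in regions that rose, so that the test had unequal depth in these sets. Of bins under 20% 5mC in ESCs, 25.3% of 5125 in regions that fell passed 20% after RA, against 11.1% of 64051 within 2-fold and 10.2% of 7367 in regions that rose. The opposite step, from 20% or more to under 20%, was made by 161 of 737 bins (21.8%) in regions that rose, 33 of 294 (11.2%) in regions that fell and 359 of 3551 (10.1%) within 2-fold, against 12.1% of 4585 over all bins. The minimum of 30 counts in both libraries selected mostly unmethylated bins, with a median ESC 5mC of 0.746%. Of the regions over 8-fold higher it kept 100 bins in 42 regions, and of those 4- to 8-fold higher 911 bins in 375 regions.

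Large falls of 5mC in regions with at least 200 counts in each library were rare and nearly all at gained acetylation. Of 14312 regions with at least 200 counts in each library, 2072 rose by more than 20 points and 26 fell by more than 20 points, and 24 of the 26 had gained H3K27ac at least 2-fold, as had 1916 (13.4%) of all 14312. The largest fall was at chr11:49642059-49649754, from 71.6% (65.0 to 77.7) to 38.1% (34.3 to 42.0), with 208 and 627 counts. The next were at chr17:30571769-30580501, from 81.5% to 48.9%, and at chr2:68964573-68981145, from 62.6% to 34.2%, where occupancy rose from 227 to 2295 counts. The fourth, at chr1:67063532-67080337, went from 60.9% to 33.4% with 202 and 1457 counts. All 4 had gained H3K27ac, the third 10.2-fold, and the fourth had no ESC peak. In ESCs they held 0.829, 0.819, 0.420 and 0.369 CPM per kb in this order. Outside all peaks the ESC library held 0.141 CPM per kb, with 57.6% 5mC. What part of the ESC values came from DNA without acetylation was not tested. In the H3K4me1 libraries 5mC of the 4 regions fell by less, from 57.1% to 54.4%, from 74.3% to 55.6%, from 53.1% to 48.9% and from 54.1% to 43.9%, in the same order.

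Of the 2072 regions with rises of more than 20 points, 1354 had stayed within 2-fold in occupancy (12.2% of 11131 such regions) and 652 had lost H3K27ac at least 2-fold (51.5% of 1265), against 14.5% over all 14312. The 4 largest rises were in regions of the latter kind. At chr5:143201525-143205643 acetylated DNA went from 8.57% (6.57 to 10.9) to 82.4% (77.0 to 87.0) while counts fell from 677 to 239. At chr8:44375018-44386604 it went from 5.28% to 64.4%, at chr1:134156846-134170068 from 8.17% to 66.3% and at chr4:101108304-101131174 from 21.8% to 79.7%. H3K4me1-bound DNA of these 4 regions rose as well, for example from 27.5% to 71.2% at chr5:143201525-143205643. All 4 kept an H3K27ac peak in both lists, and the fourth, with a log2 ratio of -1.04, stayed within 2-fold when scaled to counts outside peaks (-0.87).

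Some regions gained acetylation and 5mC together. Of 1916 regions with at least 200 counts in each library and at least 2-fold higher occupancy, 66 (3.44%) rose in 5mC by more than 20 points, a lower share than the 14.5% over all regions. The largest rise was at chr10:67634717-67648137, with 642 and 1428 counts and 19.2% (16.2 to 22.4) and 57.4% (54.7 to 59.9) 5mC. It was followed by chr5:93346184-93369003, with 1153 and 2430 counts and 18.7% and 55.6%, and by chr15:79776382-79794181, with 985 and 1966 counts and 22.1% and 58.8%. All 3 were wide, between 13421 and 22820 bp, and their gain was between 2.01-fold and 2.24-fold. Of 1265 regions with at least 2-fold lower occupancy, none fell by more than 20 points, against 0.182% of all 14312. The strongest change was at chr3:122956188-122964031, where 5mC fell by 6.67 points, from 19.9% (16.8 to 23.3) to 13.2% (9.44 to 17.8) with 613 and 272 counts. The next were chr7:73005898-73008234 with 8.67% and 2.24%, and chr13:21987553-22004429 with 15.1% and 9.49%.

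H3K4me1 changed in the same direction as H3K27ac in most regions, but not in all. Among the 59474 regions that also had at least 100 H3K4me1 counts, H3K4me1 was at least 2-fold higher in 14097 (23.7%) and lower in 16769 (28.2%). Where H3K27ac rose at least 2-fold, H3K4me1 rose in 72.7% of 15846 regions and stayed within 2-fold in 26.9%. Where H3K27ac fell, H3K4me1 fell in 72.5% of 15636 and stayed within 2-fold in 27.3%. Opposite 2-fold changes were rare, with 74 regions that gained H3K27ac and lost H3K4me1 and 36 that lost H3K27ac and gained H3K4me1. Across the regions the log2 ratios of the marks had a Pearson correlation of 0.80 and a Spearman correlation of 0.83 (n = 59474 regions, which come from 4 libraries and are not independent).

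Over the 15636 regions where H3K27ac fell and 15846 where it rose that had at least 100 H3K4me1 counts, the median log2 ratio was -1.91 for H3K27ac and -1.70 for H3K4me1 where H3K27ac fell, and 1.88 and 1.95 where it rose. The regions were chosen on H3K27ac, which by itself makes its ratio larger. An ESC peak of H3K4me1 was present in 97.4% of regions that lost H3K27ac at least 2-fold, and an RA peak in 59.6%. Of regions that gained H3K27ac, 67.2% already held an H3K4me1 peak in ESCs and 98.8% held one after RA. Over all 61153 regions these shares were 87.3% in ESCs and 82.0% after RA. With the size of the gain the share with an earlier H3K4me1 peak became smaller, from 76.8% in regions 2- to 4-fold higher to 42.4% in those over 8-fold higher.

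**Figure D5:**
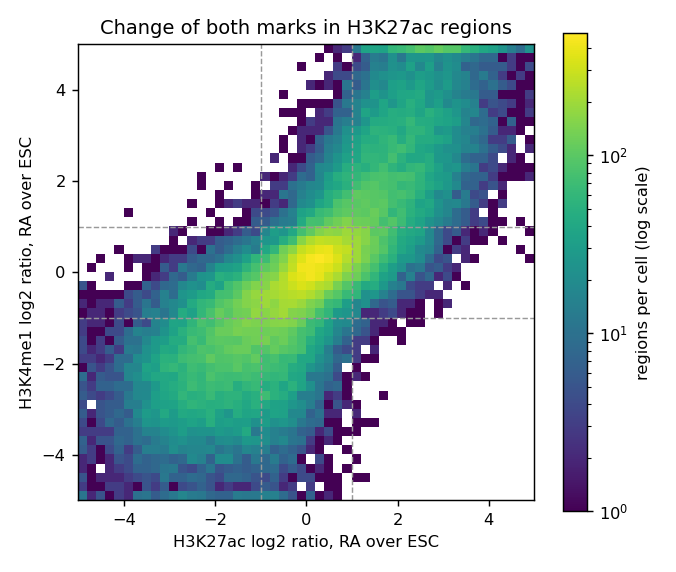
Log2 ratio of RA over ESC for H3K27ac (x axis) and H3K4me1 (y axis) in 59474 H3K27ac regions with at least 100 counts of each mark, as the number of regions per cell of 0.2 by 0.2 on a log colour scale, with values beyond 5 drawn at the edge. Dashed lines mark 2-fold, and the corners of opposite change hold 74 and 36 regions.

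XEN cells, which were made with RA and Activin A, held more of both marks in gained than in lost regions. The regions that gained H3K27ac in the RA library held 3.96 and 3.72 CPM per kb in the XEN libraries labelled H3K27ac and 2.77 and 2.58 in those labelled H3K4me1. The regions that lost it held 0.902 and 0.881 CPM per kb and 0.617 and 0.659 CPM per kb. The ratio of gained to lost regions was 4.39 and 4.22 in the XEN libraries labelled H3K27ac, and 4.49 and 3.92 in those labelled H3K4me1. With the same minimum of 4 counts per bin as in the XEN files it was 4.88 in the RA library and 0.263 in the ESC library, and without it 4.18 and 0.302. Regions within 2-fold held 2.20 and 2.12 CPM per kb in the XEN libraries labelled H3K27ac, below the gained regions, and 3.01 and 2.83 in those labelled H3K4me1, above them, as in the RA library (2.72 and 2.66 CPM per kb). In this ratio all 4 XEN libraries thus lay on the side of the RA library, whichever way the labels are read. The regions were selected on the ESC and RA values, and the XEN libraries had no part in it.

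Changed regions lay near others that changed in the same way. Of 10086 neighbouring pairs under 10 kb apart in which both regions had changed at least 2-fold, 83.7% changed in the same direction. At 10 to 50 kb it was 71.3% of 6103 pairs and at 50 kb or more 61.7% of 3612. Of all regions past 2-fold, 49.7% had risen and 50.3% had fallen. The share among pairs taken without regard to position was not computed. Even so, 1546 of the 1622 windows of 1 Mb with at least 10 regions and 3000 counts held both risen and fallen regions. Summed over its regions, a window was at least 2-fold higher in 135 cases and at least 2-fold lower in 44. The highest window, chr2:147000001-148000000, went from 2229 to 13439 counts, with 14 of 21 regions risen and 5 fallen, and its 5mC was 20.5% in both states. In chr17:78000001-79000000 all 12 regions rose, with 3967 and 22643 counts, and 5mC was 50.3% and 58.0%. The other high windows were chr8:118000001-119000000 (6.02-fold), chr12:31000001-32000000 (5.04-fold) and chr17:68000001-69000000 (4.76-fold).

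The lowest window was chr1:11000001-12000000, where all 10 regions fell and 3125 counts became 447. In chr3:34000001-35000000, 19 of 26 regions fell, from 17822 to 3759 counts, and 5mC of the acetylated DNA rose from 11.1% to 40.01%. The others were chr4:84000001-85000000, chr1:168000001-169000000 and chr16:9000001-10000000, with 4.36-, 4.09- and 4.05-fold lower counts. H3K4me1 also fell in all 5 low windows, which were chosen on H3K27ac, with log2 ratios between -1.93 and -0.84 against -2.79 to -2.02 for H3K27ac. By chromosome, the share of regions at least 2-fold higher lay between 22.1% and 31.7% on the autosomes, and it was 32.0% of 1066 regions on the X chromosome. The X chromosome had the lowest 5mC of acetylated DNA among chromosomes other than Y, with 8.09% in ESCs and 15.6% after RA, against 19.1% and 28.8% on the autosomes.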

How the data were processed

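ChIP-BS-seq libraries of H3K27ac and, for comparison, H3K4me1 and XEN cells were grouped by the sample labels. The authors aligned to mm9 with Bismark and Bowtie and describe setting aside reads in which methylated and unmethylated CpGs occurred together. Whether the deposited counts leave these reads out was not established. The deposited values are raw CpG counts, 1 column methylated and 1 unmethylated, in 200-bp bins. Mitochondrial CpGs, which are mostly unmethylated, showed which column was which. HOMER peak lists were deposited with a score, which here served for ranking alone. The paper repeated each experiment, and whether a deposited file pools repeats was not established. Versions were not given in the sources used here.

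Peaks of both lists that overlapped were merged. Counts of all bins touching a region were summed, scaled to the library total, and counts under 3 were set to 3 in ratios. Occupancy had no test, with 1 library per state. Fisher's exact test was run on bins in peaks with at least 30 counts in both libraries, and p-values were adjusted over all these bins (Benjamini-Hochberg). The scripts were tested on simulated data. Depth was 32305709 to 58803653 CpG counts per ESC or RA library and 12147115 to 31345707 per XEN library. The comparisons and lists were chosen with earlier results of these data known. Regions named were the 6 highest and 6 lowest ratios with at least 400 counts, the 4 largest rises and falls of 5mC with at least 200 counts in each library, the 3 largest 5mC rises among gained and falls among lost regions, the 5 highest and lowest 1 Mb windows, and the 3 widest regions of each list alone. Planned gene lists could not be used without gene positions of this build. Input, H3K36me and single-cell samples were not used here. Python 3.11.15, numpy 2.4.6, pandas 2.3.3, scipy 1.17.1, numba 0.67.0 and matplotlib 3.10.9 were used.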

Additional observations from a re-analysis of the deposited data

How the results depend on the processing

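Counts of regions at least 2-fold higher and lower kept to within 1.5 times of 15951 and 16149 under both other scalings, without the bins of highest coverage and with each peak taken on its own. Scaling to counts outside all peaks shifted all log2 ratios by 0.17 and gave 17867 higher and 14384 lower regions. The counts moved with the minimum, to 24715 and 25805 at 50 counts, 9337 and 8384 at 200 counts and 36298 and 37238 without a minimum, because other numbers of regions were then tested. In the higher-score part of each peak list, 23756 ESC and 24540 RA peaks had no partner, and median widths were 2893 and 2953 bp. The change of 5mC depended on how it was averaged. As a mean over bins with at least 30 counts in both libraries it was 11.4 points in regions that fell, 5.45 in those within 2-fold and 4.12 in those that rose, and in regions over 8-fold higher it reversed to a rise of 0.87 points. Without the bins of highest coverage it was 21.7 points in regions that fell and 8.35 within 2-fold, and with scaling to the median ratio it was 21.3 points in regions that fell and 3.11 in those that rose. Fisher's exact test called 20567 bins higher and 1313 lower at a minimum of 20 counts, 3271 and 447 at 60 counts, and 296 lower when a difference of more than 20 points was also asked. Between the XEN libraries labelled H3K4me1, 2.46% of regions passed 2-fold and 0.2496% passed 20 points of 5mC. Leaving out either XEN library labelled H3K27ac gave a ratio of gained to lost regions between 4.22 and 4.39. None of the 32 named values of log2 ratio changed sign under 3 alternatives, but 8 moved outside their intervals when scaled to counts outside peaks, and 4 fell short of 2-fold under 1 or 2 alternatives. These were chr4:101108304-101131174 (-0.87), chr3:122956188-122964031 (-0.99) and chr13:21987553-22004429 (-0.84) when scaled to counts outside peaks, the last also without the bins of highest coverage (-0.99), and chr15:79776382-79794181 (0.97) when scaled to the median ratio. No paired analysis was possible because each state compared holds 1 library. The main limits are the single library per state, the low counts in the state without a peak, and 5mC that can be read only where fragments were pulled down.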
